A study of Danio rerio with 4 samples.

Results

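The globin genes listed for this report are 8 rows of the 14417 genes in the deposited tables, taken by their symbols. They are the alpha globin genes hbae1, hbae3 and zgc:163057 (now named hbae4), and the beta globin genes hbbe1.1, LOC573653 (now hbbe1.3), hbbe2, hbbe3 and zgc:92880 (now hbba2). The last of these carries the name of an adult gene, so the 8 are embryonic and larval globins with 1 adult member.

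RNA was sequenced from zebrafish of a line in which the gata1 promoter drives green fluorescent protein, marking red cell precursors. Embryos were injected at the single-cell stage with a standard morpholino oligonucleotide (MO, a synthetic antisense molecule) as control, or with an MO against the transcription factor gene foxo3b. Gata1+ cells were sorted by fluorescence at 24 and at 48 hours post fertilization (hpf), giving control 24 hpf, foxo3b MO 24 hpf, control 48 hpf and foxo3b MO 48 hpf. Each of the 4 groups has 1 library, all in the gata1:GFP strain, and the labels do not say how many embryos went into a sort. With no replicates, no spread or test can be given, and each difference below describes these libraries.

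Hemoglobin is a tetramer that pairs alpha-type with beta-type globin chains around heme, and red cells keep the supply of both chains in balance. Zebrafish carry their globin genes in a major locus on chromosome 3 and a minor locus on chromosome 12, each holding alpha and beta genes together, unlike the separate alpha and beta clusters of mammals. The first red cells of the embryo, the primitive wave, use embryonic globins, and later waves switch to larval and then adult genes.

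Values are FPKM (fragments scaled by transcript length and by the mapped fragments of a library) as the authors deposited them, so levels of different genes are compared per length. Since the values are not counts, absolute depth is unknown; steps among low values put depth relative to control 24 hpf at 0.545 for foxo3b MO 24 hpf, 0.719 for control 48 hpf and 0.497 for foxo3b MO 48 hpf. The mRNA of foxo3b stood at 6.40 FPKM in control 24 hpf, 46.5 in foxo3b MO 24 hpf, 38.1 in control 48 hpf and 50.3 in foxo3b MO 48 hpf. This does not check the knockdown, since the labels do not give the site the MO binds and an MO can block translation without lowering the mRNA. Of 8 red cell marker names 7 were in the files, and the other, klf1, is the current name of klfd, which was. All 7 were above 0 in every library and summed to between 103 and 511 FPKM. Epidermal markers (5 of 8 in the files) summed to between 17001 and 22021 FPKM. The red cell list leaves out the globins, which summed to between 4096 and 32245 FPKM, so these sums do not give shares of cell types. In bulk libraries such as these, fewer red cells and less globin RNA per cell cannot be told apart.

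On chromosome 3 of the Zv9 assembly the members run from chr3:55942921, where zgc:92880 starts, to chr3:55999403, where hbae3 ends, a span of 56.5 kb. The files place hbae3 at chr3:55998281-55999403 and zgc:92880 at chr3:55942921-55943621, each at a locus of its own. By contrast hbae1, hbbe1.1 and LOC573653 all carry the locus chr3:55965768-55983958, together with 2 further rows, so how reads were divided among these 5 rows is uncertain. On chromosome 12 the members span 14.5 kb, with zgc:163057 at chr12:21688579-21689767, hbbe3 at chr12:21691961-21693036 and hbbe2 at chr12:21702359-21703066. The files give only the outer bounds of each locus, with no exons or strand. The gap between zgc:163057 and hbbe3 is 2.19 kb, and that between hbbe3 and hbbe2 is 9.32 kb.

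The globins showed separate patterns over the 4 libraries. The alpha genes hbae1 and hbae3 and the beta genes hbbe1.1, LOC573653 and hbbe2 were higher at 48 than at 24 hpf and lower in foxo3b MO than in control at both stages. The beta gene hbbe3 was the most abundant globin at 24 hpf in both treatments, and at 48 hpf it was 3.88-fold lower than at 24 hpf in control but 1.22-fold higher in foxo3b MO. The remaining members, zgc:163057 and zgc:92880, made up at most 0.349% and 0.0610% of the globin FPKM of any library.

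**Figure D1:**
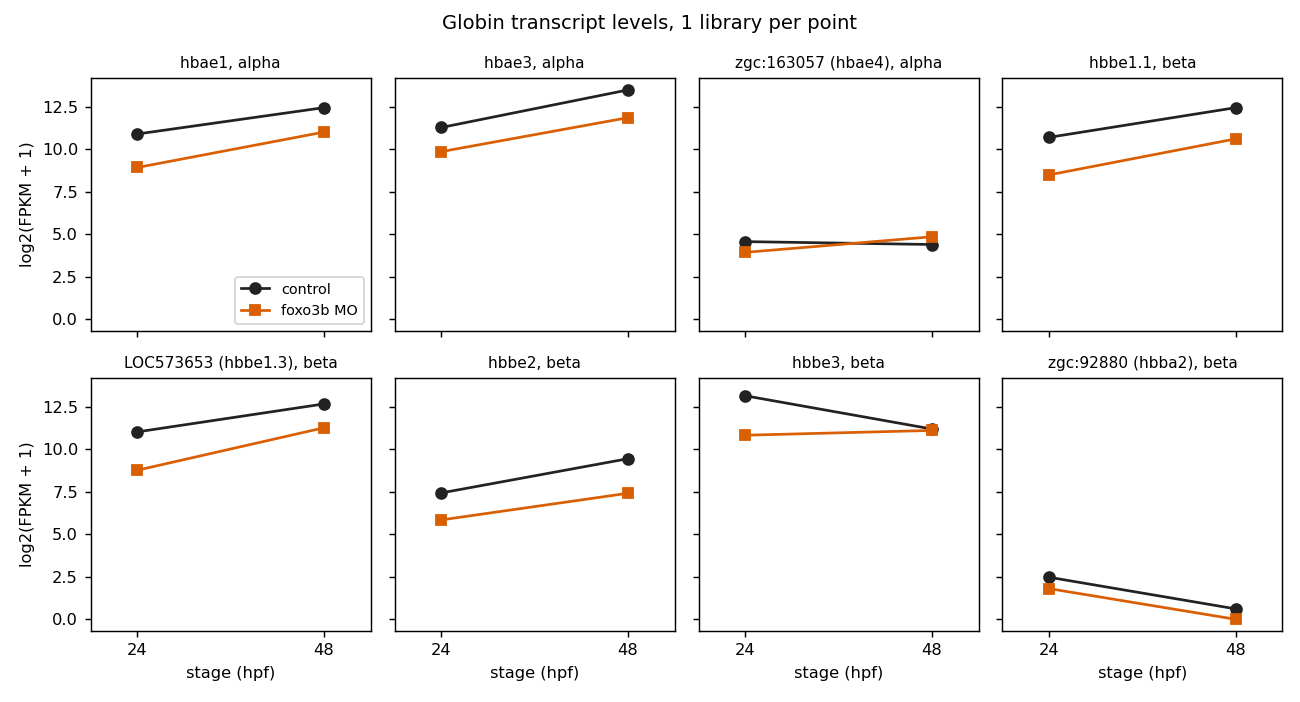
Level of each globin gene as log2(FPKM + 1) against stage in hpf, with control (black circles) and foxo3b MO (orange squares), each point being 1 library and lines only joining the same treatment. In hbae1, hbae3, hbbe1.1, LOC573653 and hbbe2 both lines climb and the orange points lie below the black ones, while hbbe3 drops from 9075 to 2340 FPKM in control and meets foxo3b MO (2207 FPKM) at 48 hpf.

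Among the alpha genes, hbae3 was the more abundant of the main pair in every library. It stood at 2485 FPKM in control 24 hpf, 928 in foxo3b MO 24 hpf, 11506 in control 48 hpf and 3710 in foxo3b MO 48 hpf. For hbae1 the values in the same order were 1907, 486, 5589 and 2062 FPKM. Control 48 hpf was the highest library for both genes and foxo3b MO 24 hpf the lowest. The ratio of hbae3 to hbae1 was 1.303 in control 24 hpf and between 1.80 and 2.06 in the other libraries, so hbae3 provided between 56.3% and 67.2% of alpha globin FPKM. The remaining alpha gene, zgc:163057, stood at 22.7 FPKM in control 24 hpf, 14.3 in foxo3b MO 24 hpf, 20.1 in control 48 hpf and 27.9 in foxo3b MO 48 hpf. It did not share the order of the others, being highest in foxo3b MO 48 hpf and varying least, by 1.95-fold between its lowest and highest library.

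Among the beta genes, hbbe3 stood at 9075 FPKM in control 24 hpf, 1815 in foxo3b MO 24 hpf, 2340 in control 48 hpf and 2207 in foxo3b MO 48 hpf. Control 24 hpf was therefore far above the other libraries, which lay close to one another. Its neighbour hbbe2 stood at 172 FPKM in control 24 hpf, 56.5 in foxo3b MO 24 hpf, 697 in control 48 hpf and 170 in foxo3b MO 48 hpf. Here control 48 hpf was the highest library, and foxo3b MO 48 hpf was at about the level of control 24 hpf. In the shared chromosome 3 locus, hbbe1.1 stood at 1663, 359, 5585 and 1564 FPKM in the same order of libraries. LOC573653 stood at 2080, 435, 6508 and 2464 FPKM. Both were highest in control 48 hpf and lowest in foxo3b MO 24 hpf, as the alpha genes were.

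The adult-type gene zgc:92880 was near the bottom of the range, at 4.56 FPKM in control 24 hpf, 2.499 in foxo3b MO 24 hpf and 0.529 in control 48 hpf, and was listed at 0 in foxo3b MO 48 hpf. Counting it, 7 rows of the chromosome 3 locus carry adult-type globin names or lie among those genes: si:ch211-5k11.6 (now hbaa2), ba1l, hbaa1, ba1 (now hbba1), ba2 and si:xx-by187g17.1. Together they summed to 7.97 FPKM in control 24 hpf, 3.83 in foxo3b MO 24 hpf and 3.05 in control 48 hpf. In foxo3b MO 48 hpf all 7 were listed at 0; it was the library with the lowest relative depth and the most genes listed at 0, 1151. Adult-type rows were thus at most 0.0935% of the FPKM of the 8 members and these rows in any library.

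The order of the levels differed more between stages than between treatments. In control 24 hpf it ran hbbe3, hbae3, LOC573653, hbae1, hbbe1.1, hbbe2, zgc:163057 and zgc:92880 from high to low, and in foxo3b MO 24 hpf only hbae1 and LOC573653 changed places. In control 48 hpf hbae3 came first and hbbe3 stood between hbbe1.1 and hbbe2. In foxo3b MO 48 hpf hbae3 was also first, and hbbe3 stood between LOC573653 and hbae1. The lowest places, of hbbe2, zgc:163057 and zgc:92880, were alike in the 4 libraries. With 1 library per group, it cannot be said which neighbours in these orders differ beyond their spread.

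Switching between globins can be read within each library, where the scale of the library drops out. In control the share of hbbe3 in summed globin FPKM was 52.1% at 24 hpf and 7.26% at 48 hpf. In foxo3b MO the shares were 44.3% and 18.1%. The later stage thus had the smaller hbbe3 share in both treatments, with a wider gap between stages in control. Over the same stages hbae3 held 14.3% and 35.7% of control globin FPKM, and 22.7% and 30.4% in foxo3b MO. Within the beta genes alone, hbbe3 made up 69.8% of beta FPKM in control 24 hpf, 68.0% in foxo3b MO 24 hpf, 15.5% in control 48 hpf and 34.5% in foxo3b MO 48 hpf. The treatments were close at 24 hpf on this measure and apart at 48 hpf. The ratio of hbbe2 to hbbe3, both at loci of their own, was 0.0189 and 0.298 at 24 and 48 hpf in control, and 0.0311 and 0.0768 in foxo3b MO.

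**Figure D2:**
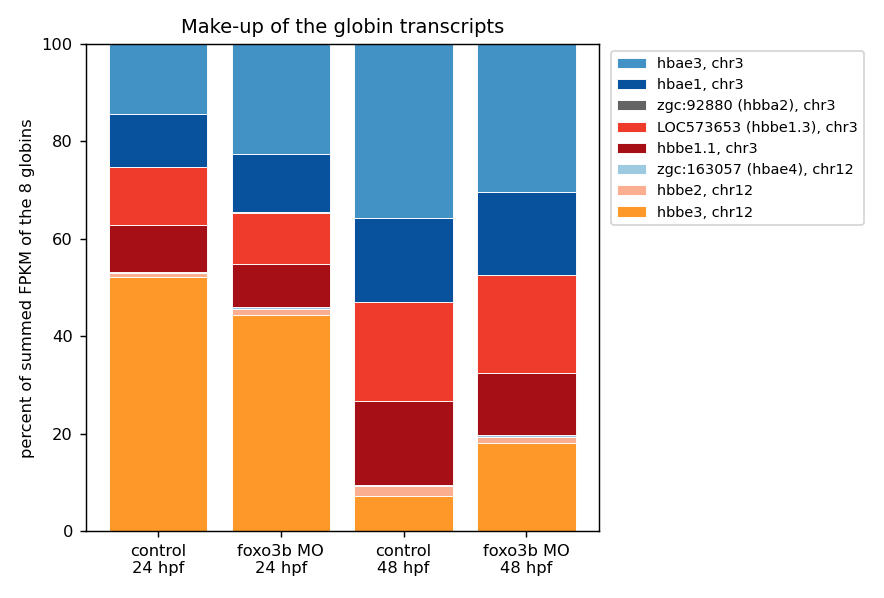
Percent of the summed FPKM of the 8 globins taken by each gene, 1 stacked bar per library, with chromosome 12 genes at the bottom. The hbbe3 block shrinks from 52.1% to 7.26% between stages in control and from 44.3% to 18.1% in foxo3b MO. The blocks of hbae1, hbae3, hbbe1.1 and LOC573653 widen in both treatments.

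The alpha to beta balance, taken as summed FPKM of the alpha members over that of the beta members, was 0.340 in control 24 hpf, 0.535 in foxo3b MO 24 hpf, 1.13 in control 48 hpf and 0.906 in foxo3b MO 48 hpf. At 24 hpf beta transcripts were in excess in both treatments, and less so in foxo3b MO. At 48 hpf the sums were near parity. In control, alpha FPKM summed to 4415 at 24 hpf and 17115 at 48 hpf, 3.88-fold higher, and beta FPKM to 12995 and 15130, 1.16-fold higher. In foxo3b MO, alpha FPKM summed to 1428 and 5800, 4.06-fold higher, and beta FPKM to 2668 and 6404, 2.40-fold higher. The stages thus differed by similar folds in summed alpha globins and by unlike folds in summed beta globins. Single genes of both chains had unlike folds. At 48 hpf hbae1 was 2.93-fold higher in control and 4.24-fold in foxo3b MO, but hbae3 4.63-fold and 3.998-fold. Among beta genes LOC573653 was 3.13-fold and 5.66-fold higher, hbbe1.1 3.36-fold and 4.35-fold, and hbbe2 4.05-fold and 2.9997-fold. The widest contrast was that of hbbe3, 3.88-fold lower in control and 1.22-fold higher in foxo3b MO.

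Since no row carried the names hbae5, hbae1.2, hbae1.3 or hbbe1.2, the balance may not cover every globin gene. The value of this balance also depends on which rows stand for each chain. With only members at loci of their own, it was 0.271, 0.503, 3.80 and 1.57 in the same order of libraries, and with geometric means of the members above 10 FPKM, which give weight to the weakly expressed zgc:163057, it was 0.312, 0.523, 0.393 and 0.545. On every choice of rows tried the balance in control was higher at 48 than at 24 hpf, and at 24 hpf it was higher in foxo3b MO than in control. At 48 hpf foxo3b MO was the lower on all choices that used both chromosomes, except the geometric means. Within the chromosome 3 genes alone the ratio was 1.17 in control 24 hpf, 1.77 in foxo3b MO 24 hpf, 1.41 in control 48 hpf and 1.43 in foxo3b MO 48 hpf, so alpha members exceeded beta members there. With the row si:busm1-118j2.5, an older name of hbbe1.1, added to beta it was 0.902, 1.13, 1.13 and 0.949, so on that count beta was in excess in control 24 hpf and foxo3b MO 48 hpf. Within the chromosome 12 genes it was at most 0.0117, since zgc:163057 is scarce beside hbbe3. That value was in foxo3b MO 48 hpf, and control 48 hpf was at 0.00661.

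**Figure D3:**
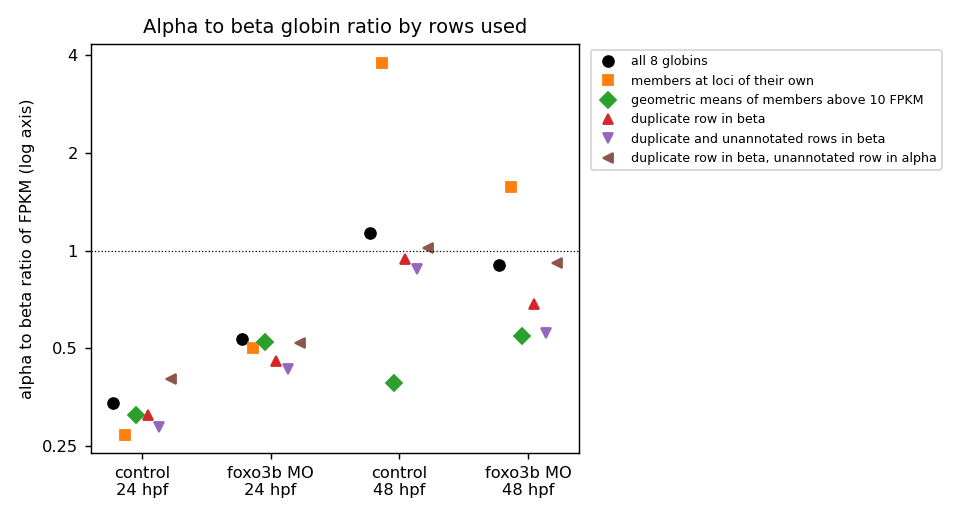
Ratio of alpha to beta globin FPKM in each library on a log axis, with black circles for all 8 globins and coloured symbols for other choices of rows; the dotted line marks equal sums. At 24 hpf every symbol lies below the line (0.340 and 0.535 for all 8 globins), and at 48 hpf the choices spread from 0.393 to 3.80 in control.

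The minor locus held a smaller share of the globins at 48 than at 24 hpf. Chromosome 12 genes summed to 9270 FPKM in control 24 hpf, 1885 in foxo3b MO 24 hpf, 3057 in control 48 hpf and 2404 in foxo3b MO 48 hpf. Chromosome 3 genes summed to 8140, 2211, 29189 and 9800 FPKM. In control the minor locus thus gave 53.2% of globin FPKM at 24 hpf and 9.48% at 48 hpf, and in foxo3b MO 46.0% and 19.7%. With members at loci of their own only, the 48 hpf shares were 21.0% in control and 39.3% in foxo3b MO, again the higher in foxo3b MO.

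Genes of the same locus did not all share a pattern. Distances were taken between log2(FPKM + 1) profiles over the 4 libraries, each centred on its own mean. Among hbae1, hbae3, hbbe1.1, LOC573653 and hbbe2, the 10 pairwise distances ran from 0.326 to 0.708, although hbbe2 lies on the other chromosome. From hbbe3 to these genes they ran from 2.83 to 3.20, and that to hbbe2, its neighbour at 9.32 kb, was 3.01. Of the members hbbe3 was nearest to zgc:92880, at 1.58, and to zgc:163057, its other neighbour, at 1.74. The first of these was at most 4.56 FPKM. The genes hbae1, hbbe1.1 and LOC573653, 0.326 to 0.348 apart, share a locus where the division of reads is uncertain.

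Among 7052 genes that averaged 10 FPKM or more and had a value above 0 in the 4 libraries, those with the profile most like hbae3 were rbp2b, cox6b1, hbbe2, napg and hbae1, at distances of 0.185 to 0.503. The retinol binding protein gene rbp2b stood at 65.6 FPKM in control 24 hpf, 19.8 in foxo3b MO 24 hpf, 279 in control 48 hpf and 90.2 in foxo3b MO 48 hpf. For hbbe3 the nearest were meig1, tmem14c, zgc:161979 (now afp4), zgc:136896 (now rpl31) and pklr, at distances of 0.597 to 0.701, farther than any of the 5 nearest to hbae3. The gene tmem14c, for the carrier of a heme precursor into mitochondria, stood at 321, 93.5, 159 and 114 FPKM in the same order of libraries. The red cell pyruvate kinase gene pklr stood at 78.2, 16.6, 16.4 and 30.7 FPKM. With 4 libraries such likeness is a description only.

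Not all rows around the globins moved with them. Of 10 listed neighbour names, with rhbdf1 and rhbdf1a naming 1 gene, 6 were in the files. Of the 6, aqp8b lies outside 100 kb of the members. None of the 6 differed 2-fold between treatments. Of all genes 1.94% were 2-fold lower in foxo3b MO and 3.12% higher at 24 hpf, and 3.67% and 1.92% at 48 hpf. Between stages 1 of the 6, aqp8a.1, was 2-fold higher at 48 than at 24 hpf in both treatments. Of all genes 21.0% were in control and 15.7% in foxo3b MO. Such counts do not set these neighbours apart from genes at large. Within 100 kb of the members the files hold 11 further rows on chromosome 3 and 4 on chromosome 12. Among these, MGC173646 and si:busm1-118j2.5 in the shared locus had log2 folds of -2.70 and -1.31 in foxo3b MO at 24 hpf. The row si:xx-by187g17.1, below the floor, was at -1.18 in that comparison. The gene nprl3, whose introns hold the main alpha globin enhancers in mammals, stood at 7.28 FPKM in control 24 hpf, 8.36 in foxo3b MO 24 hpf, 11.9 in control 48 hpf and 16.3 in foxo3b MO 48 hpf. Its log2 fold in foxo3b MO was 0.18 at 24 hpf, about the all-gene median of 0.19, and -0.03 with median-ratio scaling; at 48 hpf it was 0.42. The water channel gene aqp8a.1, beside the chromosome 12 globins, stood at 16.8, 12.7, 46.1 and 48.2 FPKM, higher at 48 hpf but close between treatments at that stage. The methyltransferase gene lcmt1, the next along, lay between 15.8 and 17.4 FPKM in the 4 libraries.

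**Figure D4:**
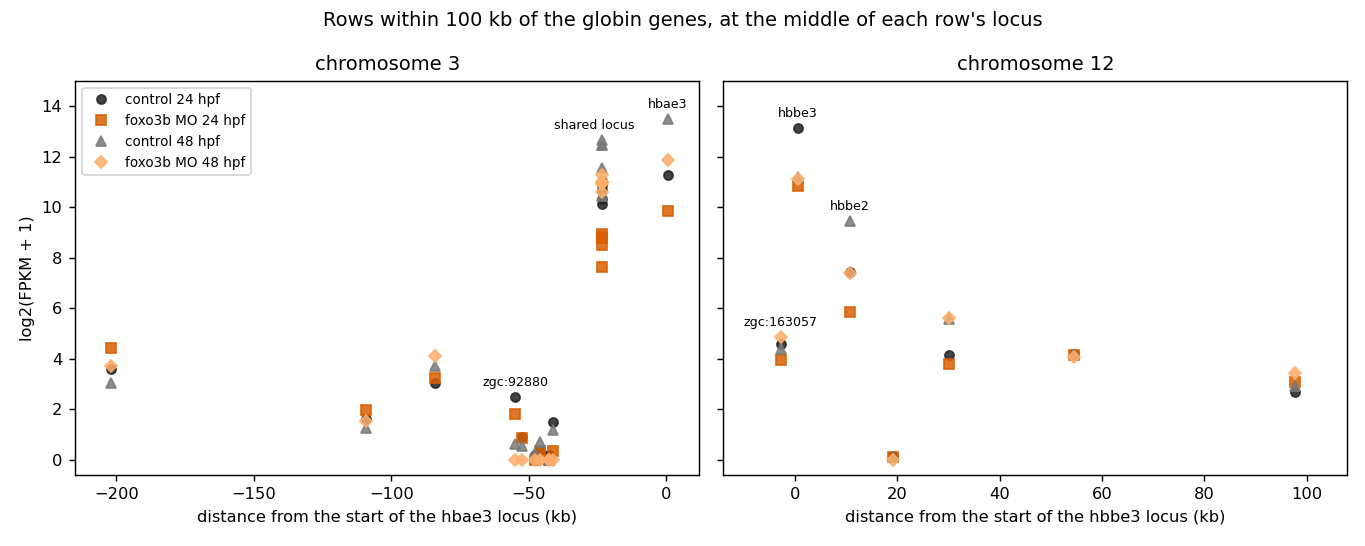
Level as log2(FPKM + 1) of every row within 100 kb of the globin members, against distance in kb from the start of the hbae3 locus (chromosome 3) or the hbbe3 locus (chromosome 12), with each symbol 1 library. The 5 rows of the shared locus and hbae3 stand above all other rows of chromosome 3, adult-type rows lie near 0, and on chromosome 12 hbbe3 and hbbe2 have their highest library at different stages.

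The 2 other rows of the shared chromosome 3 locus did not follow its members in every library. The row si:busm1-118j2.5 stood at 1119 FPKM in control 24 hpf, 451 in foxo3b MO 24 hpf, 2985 in control 48 hpf and 2056 in foxo3b MO 48 hpf. Its ratio to the row hbbe1.1 was 0.673 and 0.535 in the control libraries and 1.26 and 1.31 in the foxo3b MO libraries, for what the annotation treats as 1 gene. Its log2 fold in foxo3b MO was -1.31 at 24 hpf and -0.54 at 48 hpf. The row MGC173646, which has no annotation in the tables used here, stood at 1279, 195, 1401 and 1953 FPKM, and so was higher in foxo3b MO than in control at 48 hpf. Whether reads were divided differently among these rows in different libraries was not tested.

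The first comparison asks how globin transcripts differed between foxo3b MO and control at 24 hpf. On the log2(FPKM + 1) scale 6 of the 8 members were lower by 2-fold or more in foxo3b MO and none was 2-fold higher, where 1.94% of the 11971 genes averaging 1 FPKM or more were 2-fold lower and 3.12% 2-fold higher. The log2 fold was -2.32 for hbbe3, -2.25 for LOC573653, -2.21 for hbbe1.1, -1.97 for hbae1, -1.59 for hbbe2 and -1.42 for hbae3. For zgc:163057 it was -0.63 and for zgc:92880 -0.67. The member median was -1.78 and that of all genes 0.19. Beta globin FPKM was 4.87-fold lower and alpha globin FPKM 3.09-fold lower, and each of the 8 log2 folds stayed negative under the scalings and pseudocounts tried. With equal total FPKM, which put the all-gene median at 0.65, 5 members were 2-fold lower, where 0.693% of all genes were, and none 2-fold higher, where 19.5% were.

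In the same comparison at 48 hpf, 5 of the 8 members were lower by 2-fold or more, against 3.67% of all genes, and none was 2-fold higher, against 1.92%. These 5 (hbae1, hbae3, hbbe1.1, LOC573653 and hbbe2) were also 2-fold lower at 24 hpf, in a comparison with different libraries. The share of all genes lower at both stages was not taken. Since hbae1, hbbe1.1 and LOC573653 share 1 locus, the 5 are not separate observations. With members at loci of their own, hbae3 and hbbe2 remained. The log2 folds at 48 hpf were -2.03 for hbbe2, -1.84 for hbbe1.1, -1.63 for hbae3, -1.44 for hbae1 and -1.40 for LOC573653. The other row of hbbe1.1, si:busm1-118j2.5, was at -0.54, short of 2-fold. For hbbe3 the log2 fold was -0.08 and for zgc:163057 it was 0.46. The scarce zgc:92880 was at -0.61, and at -2.65 with a pseudocount of 0.1 FPKM. That pseudocount brings the count to 6, where 5.396% of all genes were 2-fold lower. The member median was -1.42 and the all-gene median -0.02. Scaling the libraries to equal total FPKM put the all-gene median at 0.60 and left 2 members (hbbe1.1 and hbbe2) at least 2-fold lower, where 1.17% of all genes were. On that scale 1 member, zgc:163057 at 1.102, was 2-fold higher, where 16.7% of genes were, and hbbe3 was at 0.59, so its direction at 48 hpf depends on the scale.

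The difference of these log2 folds between stages, 48 minus 24 hpf, was 2.24 for hbbe3 and 1.09 for zgc:163057. Both passed 1 in size, as 2.95% of genes did in that direction, and none passed -1, as 8.97% of genes did, while the other members lay between -0.45 and 0.85, and the median of all genes was -0.20. With a pseudocount of 5 FPKM zgc:163057 came to 0.91, where 1.55% of genes passed 1. With median-ratio scaling LOC573653 also passed, at 1.11, where 5.33% of genes did. With a pseudocount of 0.1 FPKM the scarce zgc:92880 came to -1.81, and the share of all genes past -1 was not taken there. On the deposited scale with 1 FPKM added, the members that differed most between stages were neighbours on chromosome 12. The remaining member there, hbbe2, was at -0.45. No test of this difference was possible with 1 library per group.

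Between stages in control, 5 members were at least 2-fold higher at 48 than at 24 hpf, where 21.0% of all genes were, and 2 members (hbbe3 and zgc:92880) were 2-fold lower, where 8.75% were. These comparisons share libraries with those above. The log2 fold was 2.21 for hbae3, 2.01 for hbbe2, 1.75 for hbbe1.1, 1.65 for LOC573653 and 1.55 for hbae1. It was -1.96 for hbbe3. In foxo3b MO the 5 genes that were higher were the same, against a background of 15.7%, and 1 member, zgc:92880, was 2-fold lower, against 11.5%. Both calls of zgc:92880 were lost with a pseudocount of 5 FPKM, at -0.79 in control and -0.58 in foxo3b MO, and a floor of 5 FPKM left the gene out. There the log2 fold was 2.499 for LOC573653, 2.12 for hbbe1.1, 2.08 for hbae1, 1.998 for hbae3, 1.57 for hbbe2 and 0.28 for hbbe3.

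**Figure D5:**
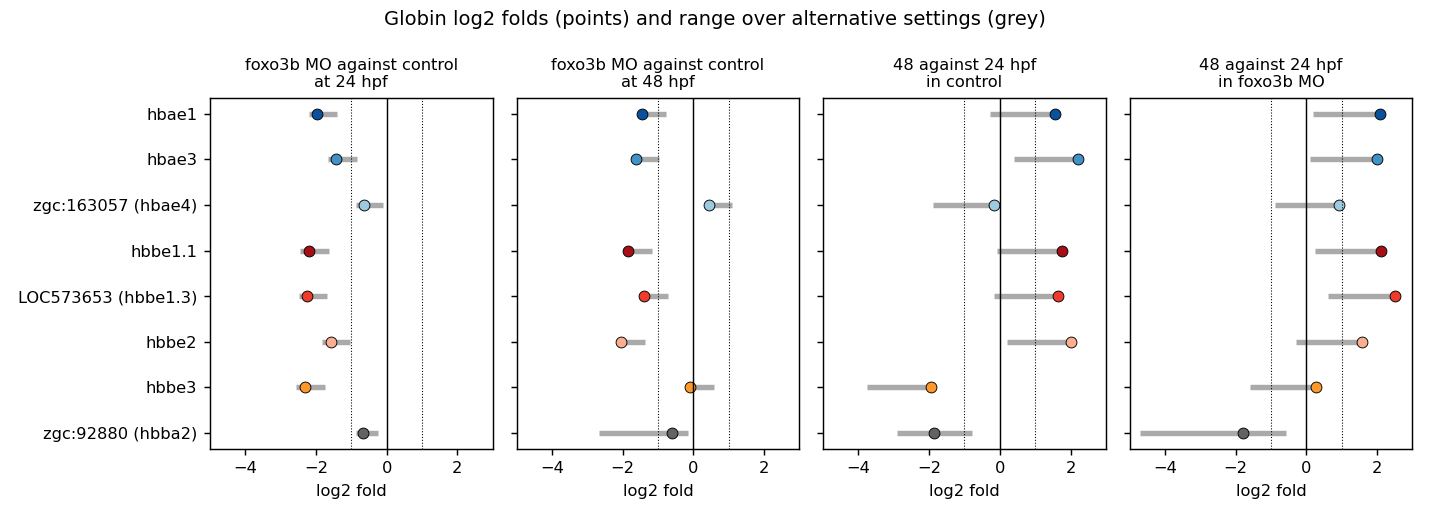
Log2 fold of each globin gene on the log2(FPKM + 1) scale in the 4 comparisons, with points for the deposited scale, grey bars for the range over the alternative pseudocounts, floors and scalings, and dotted lines at 2-fold. In the 24 hpf comparison every bar lies below 0, while the stage comparisons have bars that cross 0.

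The stage differences depend on what globins are measured against. The sum of the red cell markers was itself higher at 48 hpf. With gata1a included, it was 153 FPKM in control 24 hpf, 103 in foxo3b MO 24 hpf, 511 in control 48 hpf and 363 in foxo3b MO 48 hpf. Summed globin FPKM was 114 times this sum in control 24 hpf, 39.8 times in foxo3b MO 24 hpf, 63.2 times in control 48 hpf and 33.6 times in foxo3b MO 48 hpf. Relative to the marker sum the globin sum was therefore lower in foxo3b MO at both stages, and not higher at 48 than at 24 hpf in either treatment. Most of the marker sum at 48 hpf came from cahz and rhag. In control these stood at 46.7 and 16.2 FPKM at 24 hpf and 223 and 139 at 48 hpf. Of the 7 markers, 4 (slc4a1a, klfd, cahz and rhag) were 2-fold higher at 48 hpf in control, where 21.0% of all genes were. Only gata1a was 2-fold lower, at 8.23 and 2.49 FPKM, where 8.75% of all genes were. Between these lay alas2, at 36.8 and 56.0 FPKM, and sptb, at 19.2 and 22.5. At 48 hpf the marker sum thus stands mainly for cahz and rhag. In control 24 hpf alas2 (36.8 FPKM), slc4a1a (24.1) and sptb (19.2) also made up much of it. With libraries scaled to an equal sum of the markers without gata1a, foxo3b MO was 2-fold lower for 5 members at 24 hpf, where 0.819% of all genes were, and for 3 at 48 hpf, where 1.25% were. Between stages none was 2-fold higher, where 4.71% of genes were in control and 3.37% in foxo3b MO. Some log2 folds stayed above 0 short of that. They were 0.39 for hbae3 and 0.20 for hbbe2 in control. In foxo3b MO they were 0.61 for LOC573653, 0.23 for hbbe1.1, 0.19 for hbae1 and 0.11 for hbae3. In control 3 members were 2-fold lower (hbbe3 at -3.77, zgc:92880 at -2.92 and zgc:163057 at -1.90), where 66.1% of genes were, and in foxo3b MO 2 (hbbe3 and zgc:92880), where 76.3% were. That scaling put the all-gene median at -1.43 for the stages in control and -1.77 in foxo3b MO.

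As a share of the library, the 8 globins took 0.761% of total FPKM in control 24 hpf, 0.260% in foxo3b MO 24 hpf, 1.34% in control 48 hpf and 0.811% in foxo3b MO 48 hpf. The control share was the higher at each stage. Markers of other tissues also differed between libraries. Those of liver, gut and yolk (6 of 7 in the files) summed to 136840, 97821, 201111 and 49007 FPKM in the same order. Of these sums fabp1b.1 alone was 122922, 88013, 187400 and 39376 FPKM. It was the only 1 of 5 past the floor to be 2-fold lower in foxo3b MO at 48 hpf (3.67% of all genes), and none was 2-fold higher (1.92%). Markers of muscle (7 of 7) summed to 7897, 6461, 35182 and 29286 FPKM. Those of the hatching gland (5 of 5) summed to 8067, 8855, 2164 and 4967, and those of myeloid cells (5 of 6) to 74.8, 38.0, 433 and 317. Of the myeloid sums lyz alone was 33.3, 5.75, 382 and 214 FPKM. In foxo3b MO at 24 hpf 1 of the 5, lyz, was 2-fold lower (1.94% of all genes) and none higher (3.12%). At 48 hpf none was 2-fold lower in foxo3b MO (3.67%) and 1, mmp9, was higher (1.92%). Lens markers (6 of 6) summed to between 89.9 and 2995 FPKM, neural markers (4 of 5) to between 213 and 458, endothelial markers (4 of 5) to between 47.6 and 65.9, and thrombocyte markers (2 of 3) to at most 0.536. Of these markers ttr (liver and yolk) and itga2b (thrombocytes) were listed at 0, each in foxo3b MO 48 hpf. Their part in the globin differences was not tested.

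Heme synthesis, which supplies the cofactor of globin, had 15 of 16 listed genes in the files, and all 15 passed the floor of 1 FPKM. In foxo3b MO at 24 hpf 2 were lower by 2-fold or more (1.94% of all genes) and 1 was 2-fold higher (3.12%). The median log2 fold was -0.31. The erythroid enzyme gene alas2, which catalyses the first step, stood at 36.8 FPKM in control 24 hpf, 15.2 in foxo3b MO 24 hpf, 56.0 in control 48 hpf and 33.7 in foxo3b MO 48 hpf, and so was highest and lowest in the same libraries as hbae1 and hbae3. At 48 hpf 1 gene, flvcr1, was 2-fold lower in foxo3b MO (3.67% of all genes) and none higher (1.92%). The same scarce flvcr1 was the gene 2-fold higher at 24 hpf, and stood at 1.51, 4.12, 3.67 and 0.867 FPKM in the 4 libraries. Between stages in control 7 of the 15 were 2-fold lower (8.75% of all genes) and none higher (21.0%). In foxo3b MO 3 were lower (11.5%) and 1, alas2, was higher (15.7%). The enzyme gene cpox stood at 53.1, 33.9, 9.14 and 10.3 FPKM in the 4 libraries, and thus was lower at 48 hpf, where most globins were higher.

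Of 16 listed gene names of the red cell membrane and gas transport, 9 were in the files and passed the floor. The listed ank1a is the current name of ank1, which was among the 9. At 24 hpf 2 were 2-fold lower in foxo3b MO (1.94% of all genes) and none higher (3.12%). At 48 hpf none passed 2-fold in either direction, where 3.67% of all genes were lower and 1.92% higher. The medians were -0.35 and -0.06. The anion exchanger gene slc4a1a stood at 24.1 FPKM in control 24 hpf, 9.66 in foxo3b MO 24 hpf, 63.2 in control 48 hpf and 63.4 in foxo3b MO 48 hpf. It lay with the globins at 24 hpf and was equal between treatments at 48 hpf. Between stages 5 of the 9 were 2-fold higher in control (21.0% of all genes) and 7 in foxo3b MO (15.7%). None was 2-fold lower, where 8.75% of all genes were in control and 11.5% in foxo3b MO. The carbonic anhydrase gene cahz, the most abundant, stood at 46.7, 38.5, 223 and 156 FPKM.

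Among 19 listed names of regulators of red cell and globin genes, 14 were in the files and passed the floor. The listed klf1 and myb are current names of klfd and cmyb, which were among the 14. Apart from foxo3b, higher in foxo3b MO at 24 hpf, none differed 2-fold between treatments at either stage. Few genes did: 1.94% were lower and 3.12% higher at 24 hpf, and 3.67% and 1.92% at 48 hpf. The transcription factor gene gata1a stood at 8.23 FPKM in control 24 hpf, 6.30 in foxo3b MO 24 hpf, 2.49 in control 48 hpf and 4.33 in foxo3b MO 48 hpf. It was lower at 48 hpf, unlike the main globins. The gene klfd (now klf1), for a factor known in mammals to activate the adult beta globin gene, stood at 1.35, 1.35, 5.03 and 5.80 FPKM. The genes bcl11aa and bcl11ab, whose mammalian counterpart silences fetal globin, stood at 1.77, 1.19, 14.7 and 11.63 FPKM and at 1.89, 2.02, 22.3 and 26.4 FPKM. All 3 were at least 2-fold higher at 48 hpf in both treatments, and within 2-fold between treatments at each stage; the mammalian roles are background and bcl11 genes are also known in the nervous system. Between stages 5 of the 14 regulators were 2-fold higher (21.0% of all genes) and 1 lower (8.75%) in control. In foxo3b MO 3 were higher (15.7%) and none lower (11.5%).

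Of 16 other globin names listed, 8 were in the files. The listed hbae1.1, hbae4, hbaa2 and hbba1 are current names of rows held under older names (hbae1, zgc:163057, si:ch211-5k11.6 and ba1). The listed hbae5, hbae1.2, hbae1.3 and hbbe1.2 had no row under those names. The adult-type hbaa1, ba1 and ba1l fell short of the floor. The other 5 (cygb1, cygb2, mb, ngb and xgb) passed it. The cytoglobin gene cygb1 stood at 17.6 FPKM in control 24 hpf, 23.6 in foxo3b MO 24 hpf, 15.5 in control 48 hpf and 18.7 in foxo3b MO 48 hpf, slightly higher in foxo3b MO at both stages. The myoglobin gene mb, which stores oxygen in muscle, stood at 3.24, 2.39, 22.4 and 7.70 FPKM, and was the only one of the 5 to be 2-fold lower in foxo3b MO, at 48 hpf. Of all genes 3.67% were lower in that comparison. None of the 5 was 2-fold different at 24 hpf, where 1.94% of all genes were lower and 3.12% higher. Between stages 4 of the 5 were 2-fold higher in control (21.0% of all genes) and 2 in foxo3b MO (15.7%). The gene xgb, for globin X, was listed at 0 in both 24 hpf libraries and stood at 3.35 and 4.44 FPKM at 48 hpf.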

How the data were processed

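The authors deposited 1 table of FPKM values per library, 4 libraries in all, made with TopHat (alignment) and Cufflinks (quantification) on Zv9, per the submitters' processing notes; the sources used here give no versions, options or annotation. Total FPKM over the 14417 genes ran from 1505447 to 2402299 and was not rescaled. Current names were found for the 8 globins in a RefSeq table (assembly GRCz12tu), used for names only.

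Log2 folds are log2((FPKM + 1)/(FPKM + 1)), and backgrounds cover the 11971 genes averaging 1 FPKM or more, a floor all 8 globins passed. No test was run, since a group is 1 library. Relative depth is the offset that put most genes below 0.3 FPKM in both libraries on ratios of 1 to 3 whole reads; 42.3%, 41.9% and 45.6% of 652, 391 and 261 genes lay within 0.03 log2 of such a ratio. The 8 globins were named in full. Of each other list the rule takes the most abundant gene and the 3 largest log2 folds per comparison; a selection of these is printed. Adult-type rows were grouped, and lcmt1 and the other rows of the shared locus named, after their values were seen. Members, lists and rules were chosen with earlier results of these data known. The alternatives changed the pseudocount (0.1 or 5 FPKM), the floor (none or 5 FPKM) and the scaling, with 4 scalings (median of ratios, equal totals, equal totals without globins, equal red cell markers), or kept only members at loci of their own; those using the other rows of the shared locus were added after seeing the data. The steps were tested on simulated data. Python 3.11.15, numpy 2.4.6, pandas 2.3.3 and matplotlib 3.10.9 were used.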

Additional observations from a re-analysis of the deposited data

Results flagged for a closer look

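The gene hbbe3 differed in opposite directions between stages, with a log2 fold of 48 against 24 hpf of -1.96 in control and 0.28 in foxo3b MO. The second value turned to -1.61 with libraries scaled to equal red cell markers, so opposite directions were not found on that scale. The gene zgc:163057 had a log2 fold of -0.17 between stages in control and 0.92 in foxo3b MO, and the second turned to -0.90 on the same scale. For foxo3b MO against control, zgc:163057 had a log2 fold of -0.63 at 24 hpf and 0.46 at 48 hpf. These signs held on each scaling and pseudocount tried, but the sizes did not. With equal red cell markers the values were -0.09 at 24 hpf, close to no difference, and 0.92 at 48 hpf. Each rests on 1 library per group, and the differences were not tested.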

How the results depend on the processing

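No paired analysis was possible because each group has 1 library and the labels give no replicate numbers, and for the same reason no library could be left out. The pseudocounts, floors and the median of ratios left the counts of globins lower in foxo3b MO and higher at 48 hpf within 1.5 times their main values. The counts lower at 48 hpf went from 2 to 1 in control and from 1 to 0 in foxo3b MO with a pseudocount or floor of 5 FPKM, both by zgc:92880. Of all genes 5.37% in control and 6.42% in foxo3b MO were lower with that pseudocount, and 9.94% and 12.5% with that floor. With members at loci of their own, the count lower in foxo3b MO was 3 of 5 at 24 hpf (1.94% of all genes) and 2 of 5 at 48 hpf (3.67%). Between stages 2 of 5 were higher at 48 hpf in control (21.0% of all genes) and 2 of 5 in foxo3b MO (15.7%). Fewer genes enter these counts. At 48 hpf the count lower in foxo3b MO was 2 with equal totals (1.17% of all genes), 2 with equal totals without globins (1.19%) and 3 with equal red cell markers (1.25%). Equal red cell markers gave 0 globins 2-fold higher between stages, where 4.71% of all genes were in control and 3.37% in foxo3b MO. They turned the control stage log2 folds of hbae1 to -0.26, hbbe1.1 to -0.069 and LOC573653 to -0.17, and the foxo3b MO one of hbbe2 to -0.30. That of hbae3 stayed above 0, at 0.39 in control and 0.11 in foxo3b MO. The sum of these markers was itself higher at 48 hpf, mostly by cahz and rhag. The alpha to beta ratio at 48 hpf was 3.80 in control and 1.57 in foxo3b MO with members at loci of their own, 0.393 and 0.545 with geometric means, and 0.557 in foxo3b MO with both other rows of the shared locus counted as beta. Within chromosome 3 it was 1.13 in foxo3b MO at 24 hpf and 0.949 at 48 hpf with the row si:busm1-118j2.5 counted as beta. The chromosome 12 share at 48 hpf was 21.0% and 39.3% with members at loci of their own. Without ribosomal protein genes (symbols starting rpl or rps) in the total, globins at 24 hpf took 1.44% of control and 0.407% of foxo3b MO. With depth unknown, no counting error can be given for zgc:92880 or the adult-type rows.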
